A study of Mus musculus with 40 samples.

Results

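The metallothionein genes Mt1, Mt2, Mt3 and Mt4 were followed in mouse oocytes that carry a conditional deletion of G9a alone or of both G9a and Glp. The 4 genes are 4 of the 15023 loci in the deposited RNA table that overlap a named gene on the same strand, among 38540 loci in all. They were chosen by their RNA values in these same libraries, with the high level of Mt1 in both mutants already known. The RNA values of the members are therefore given as a description, with no test. A locus on the minus strand that covers Mt1 was taken with them. The chromatin mark H3K9me2 was not used in the choice, and its windows in the 100 kb of chromosome 8 around the cluster were tested.

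Metallothioneins are small, cysteine-rich proteins that bind zinc and copper and can bind cadmium. Transcription of Mt1 and Mt2 is known to rise with free zinc through the zinc-sensing factor MTF-1, which binds short metal response elements in their promoters, and also with glucocorticoids and oxidative stress. Mt3 is best known from brain and Mt4 from stratified epithelia. In oocytes, zinc takes part in holding meiosis and is released when the egg is activated. The products of Ehmt2 and Ehmt1, G9A and GLP, are the histone methyltransferases that make H3K9me2, the dimethylated form of lysine 9 in histone H3, a mark associated with silent chromatin.

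All samples were germinal-vesicle oocytes, the fully grown stage before meiotic maturation, dissected by hand from mice aged 22 to 25 days, with 100 to 200 oocytes per sample. The RNA libraries comprised 3 Control libraries with the title prefix GKAO, 3 G9a cKO libraries with the same prefix, 3 Control libraries with the prefix GKAQ, and 2 G9a-Glp cDKO libraries with that prefix. The H3K9me2 libraries, made by native chromatin immunoprecipitation from few cells, numbered 2 for each genotype. In the sources used here the Cre driver is not named, and whether the control animals carried Cre is not stated. Deletion of the methyltransferases and presence of a Cre transgene therefore cannot be told apart in any comparison of mutant with control. Nothing in the labels says that samples of a group came from separate animals, so p-values measure the spread between these libraries, which may be technical in part.

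The RNA libraries were scaled to totals of 1458868 to 2399680 reads. A limit of 3 reads, set here for a count of 0, thus equals 1.25 to 2.06 RPM (reads scaled to a library total of 1000000). Ehmt1 and Ehmt2 were read as a check of the labels. Ehmt1 had 31 and 36 reads in cDKO against 144 to 173 in the GKAQ controls, a log2 fold change of −2.06 (SE 0.20, limma, Benjamini-Hochberg adjusted p = 1.09e-21). Ehmt2 had few reads throughout, and the library labelled G9a cKO replicate 2 had 11 Ehmt2 reads, within the range of 9 to 13 in its controls. Its log2 fold change was −1.55 (SE 0.51, limma adjusted p = 0.0971) for G9a cKO and −1.45 (SE 0.57, limma adjusted p = 0.121) for cDKO, so the label of G9a cKO was not borne out past the threshold at this depth. All 12 listed oocyte markers had a mean of at least 10 RPM.

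The 4 genes lie in one cluster on the plus strand of chromosome 8 in the order Mt4, Mt3, Mt2, Mt1. Mt1 (ENSMUSG00000031765) is at chr8:94179089-94180325, Mt2 (ENSMUSG00000031762) at chr8:94172618-94173567, Mt3 (ENSMUSG00000031760) at chr8:94152607-94154148 and Mt4 (ENSMUSG00000031757) at chr8:94136982-94139031. Coordinates are those of the deposited table, and the submitters' processing notes name the build GRCm38. The start of Mt2 lies 6471 bases from that of Mt1, so these neighbours share one short stretch of chromatin. Stretches ahead of Mt1 and Mt2 are shown because both genes are known targets of MTF-1, while their RNA differed in the mutants. They are the 250 bases before the RefSeq start in GRCm38.p6, on the plus strand and 5′ to 3′, at chr8:94178839-94179088 for Mt1 and chr8:94172368-94172617 for Mt2. Capitals mark the metal response element cores TGCACNC and TGCGCNC on either strand.
Mt1: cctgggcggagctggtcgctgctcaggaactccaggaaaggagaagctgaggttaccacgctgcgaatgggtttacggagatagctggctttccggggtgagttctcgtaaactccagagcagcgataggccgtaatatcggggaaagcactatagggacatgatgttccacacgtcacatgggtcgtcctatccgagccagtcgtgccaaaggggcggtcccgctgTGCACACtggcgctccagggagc
Mt2: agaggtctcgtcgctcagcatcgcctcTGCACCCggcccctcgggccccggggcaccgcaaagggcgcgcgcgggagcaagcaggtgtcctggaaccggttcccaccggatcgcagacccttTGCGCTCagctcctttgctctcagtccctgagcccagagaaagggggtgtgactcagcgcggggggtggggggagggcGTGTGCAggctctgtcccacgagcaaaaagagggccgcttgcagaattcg

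The Mt1 stretch held 1 metal response core, which began 23 bases before the start. The Mt2 stretch held 3, which began 223, 128 and 50 bases before the start, the last on the minus strand. At least 1 such core was found in 21.4% of the 32851 RefSeq promoters over the same 250 bases, and at least 3 in 1.26%. Over the whole 300-base window, which runs 50 bases past the start, Mt1 held 3 cores and Mt2 held 4. Of all promoters 1.97% held at least 3 and 0.517% at least 4. The count for Mt1 thus depended on where the window ended, and the 250 bases need not hold its whole promoter. Within 250 bases Mt3 held 0 cores and Mt4 held 1. The antioxidant response core TGACNNNGC, searched on both strands, was found once in these 250-base stretches. It was in Mt2, 79 bases before the start and clear of the other matches. Of all promoters 10.2% held that core. CpG dinucleotides numbered 17 in the Mt1 stretch and 21 in that of Mt2, against 5 in each of Mt3 and Mt4 and a median of 6 over all promoters. Such matches describe the letters and do not show that a factor binds.

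Mt1 RNA was at or near 0 in every control and present in every mutant library. Counts in the GKAO controls were 2, 0 and 0 reads, or 1.37, 0 and 0 RPM. In G9a cKO the counts were 124, 116 and 145 reads, or 51.8, 63.4 and 68.3 RPM. Counts in the GKAQ controls were 1, 0 and 0 reads (0.628, 0 and 0 RPM), while the 2 cDKO libraries had 144 and 161 (82.0 and 95.4 RPM). The 5 mutant libraries were thus all far above the 6 controls, with no overlap in either comparison. Among the members this held for Mt1 alone, 1 of 4. Over all loci of the RNA data, limma called 1.05% higher in G9a cKO and 4.32% in cDKO. The share of all loci without overlap between mutants and controls is a different measure and is not given. Since Mt1 was also chosen by these contrasts, nothing is read from its count among the members.

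The mean level of Mt1 was 61.1 ± 8.48 RPM (SD, n = 3) in G9a cKO and 88.7 ± 9.51 RPM (SD, n = 2) in cDKO. Against a floor of 3 reads in the shallowest control library of each series, these levels were 29.7-fold higher in G9a cKO and 47.1-fold higher in cDKO. The floor is above the Mt1 count of every control, but it is a set value and no upper limit on their true level. In order of level the groups ran cDKO, G9a cKO, then the 2 control groups, which overlapped. The lowest cDKO library, at 82.0 RPM, lay above the highest G9a cKO library, at 68.3 RPM. These mutants belong to different title series. The library labelled G9a cKO replicate 2, whose Ehmt2 reads were in the control range, had a Mt1 level of 63.4 RPM, between those of the other two G9a cKO libraries.

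The title numbers allow the same comparison within smaller sets, although the labels do not say what a number stands for. Under GKAO109 the controls had 2 and 0 Mt1 reads and the G9a cKO library 124. Under GKAO115 the control had 0 and the G9a cKO libraries 116 and 145. Under GKAQ55 the control had 0 and the cDKO library 161. In each set the mutant was high and the control at or near 0.

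Mt2, the close relative of Mt1 that is usually induced with it, had 0 reads in all 11 libraries. In the mutants, where Mt1 was highest, this allows at most 1.25 to 1.64 RPM of Mt2 in G9a cKO and 1.71 to 1.78 RPM in cDKO. Mt3, the brain-enriched member, also had 0 reads in all 11 libraries, with the same limits. These limits cover counting error only. A level below them was not detectable at this depth.

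Mt4, the member known from stratified epithelia, was detected at a low level in every library. It had 5, 19 and 14 reads in the GKAO controls (3.43, 9.95 and 8.20 RPM) and 17, 17 and 9 in G9a cKO (7.10, 9.29 and 4.24 RPM). In the second series there were 6, 7 and 8 reads in GKAQ controls (3.77, 2.92 and 3.94 RPM) and cDKO had 5 and 6 (2.85 and 3.56 RPM). Mutant and control ranges overlapped in both series. The group means were 7.19 ± 3.38 RPM (SD, n = 3) in GKAO controls, 6.87 ± 2.53 (SD, n = 3) in G9a cKO, 3.54 ± 0.550 (SD, n = 3) in GKAQ controls and 3.20 ± 0.502 (SD, n = 2) in cDKO. Mt4 was thus the only member with reads in most controls, and its mutant and control means differed by less than their SD.

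**Figure D1:**
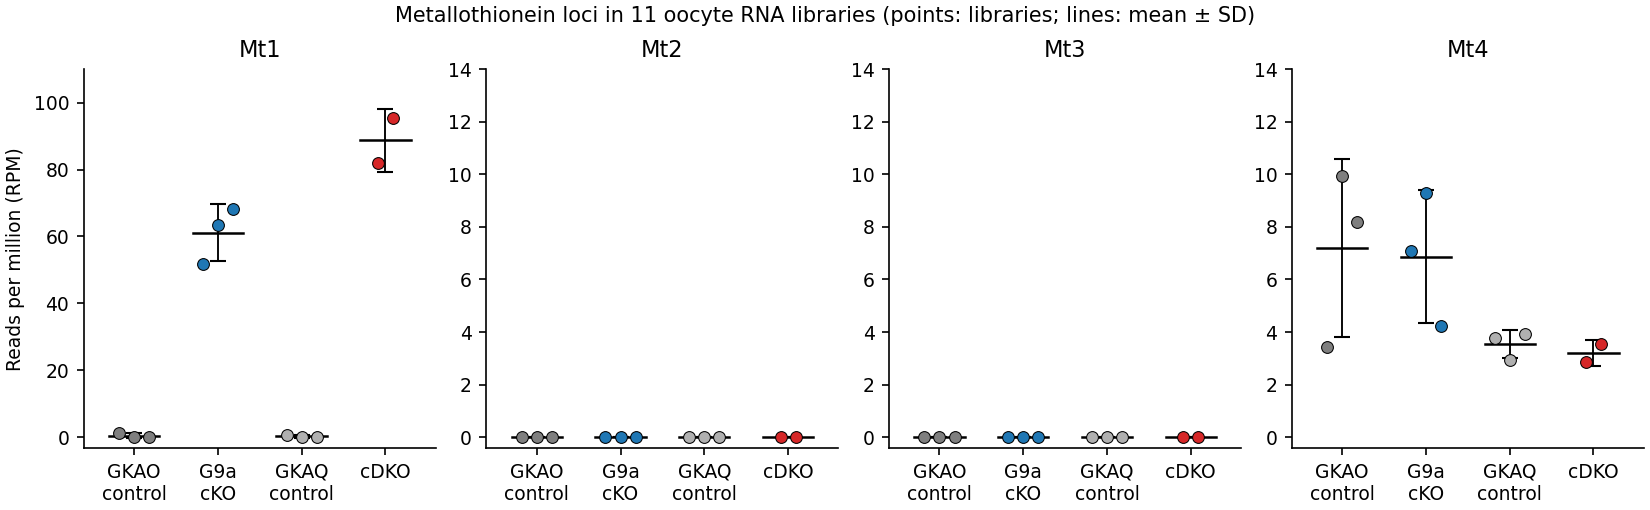
RPM of Mt1, Mt2, Mt3 and Mt4 in 11 oocyte RNA libraries, by group. Points are libraries and lines are the mean ± SD (n = 3, or 2 for cDKO). The axis of Mt1 is longer than the others. The 5 mutant libraries sit between 51.8 and 95.4 RPM for Mt1, the controls at 1.37 or below, Mt2 and Mt3 are at 0 throughout, and Mt4 overlaps between groups.

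The minus-strand locus over Mt1, at chr8:94176588-94194190, spans 17603 bases and holds the whole of Mt1. Its reads were 2, 1 and 1 in the GKAO controls, 124, 116 and 147 in G9a cKO, 1, 0 and 0 in the GKAQ controls, and 144 and 161 in cDKO. Over all libraries it had 697 reads and Mt1 had 693, so the counts of both loci were nearly the same in every library. Nested loci were compared across all of the RNA data. Of 3766 pairs in which a locus lies wholly inside one on the other strand, 703 had at least 50 reads in the inner locus. In 703 of these 703 pairs the outer locus had at least as many reads as the inner in every library, and the median share of inner in outer reads was 27.1%. In 14 pairs both totals lay within 1% of each other, as they did for Mt1. At nested loci the deposited values therefore do not tell the strands apart, and the Mt1 reads could not be assigned to one strand.

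Loci with the profile most like that of Mt1 were ranked by Pearson r of log2 RPM over the 11 libraries, among 16916 loci with a mean of at least 1 RPM that do not overlap Mt1, of which 10613 are named. The nearest 5 named genes were Antxr1 (r = 0.988), Myot (r = 0.980), Hrh1 (r = 0.977), Fat3 (r = 0.975) and Pet2 (r = 0.973). Each is a description over libraries that share the same groups. Antxr1 had 14 to 21 reads in GKAO controls and 62 to 93 in G9a cKO, 15 to 19 in GKAQ controls and 72 to 85 in cDKO. Pet2 had 20 to 22 and 86 to 185, then 16 to 27 and 83 to 92, in the same order of groups. Hrh1 rested on at most 5 reads in any library. The controls of the first 2 had reads in every library, whereas those of Mt1 were mostly at 0.

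Antxr1, the nearest named gene, was 2nd in that order, and loci without a gene name that ranked higher than the 10th are not described here. The 10th locus, chosen after its values and its place were seen, lies ahead of Zp3, which encodes a protein of the egg coat. Its r with Mt1 was 0.974. It spans chr5:135974513-135975343 on the plus strand and ends 3424 bases before the start of Zp3. The 3 GKAO controls had 0 reads and the G9a cKO libraries 9, 11 and 12 (3.76, 6.01 and 5.65 RPM). Counts were 0, 1 and 1 reads in GKAQ controls (0, 0.417 and 0.493 RPM) and in cDKO 27 and 25 (15.4 and 14.8 RPM). As for Mt1, all 5 mutant libraries were above all 6 controls, and cDKO was above G9a cKO. Against the same set floor the locus was 2.50-fold higher in G9a cKO and 8.01-fold higher in cDKO.

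The locus lies inside Srcrb4d (chr5:135959393-135980084, minus strand), which covers the Zp3 start. Srcrb4d had 31, 49 and 37 reads in GKAO controls and 85, 110 and 103 in G9a cKO. It had 41, 57 and 52 reads in GKAQ controls and 76 and 70 in cDKO. Its mutant libraries were above its controls in both series, and because strands are not told apart these values include the reads of the inner locus. They may also include reads of Zp3, whose first bases Srcrb4d covers.

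Zp3 is one of 5 genes listed because their promoters drive Cre lines in common use for the germ line or oocyte. The others are Gdf9, an oocyte growth factor, Ddx4, a germ-line RNA helicase, Prdm1, a regulator of germ cell specification, and Alpl, an alkaline phosphatase of primordial germ cells. Wholly within 10 kb ahead of the start, Gdf9 had 3 loci, Ddx4 had 1, and Prdm1 and Alpl had 0. The 3 loci ahead of Gdf9 had 0 to 88 reads in GKAO controls and 0 to 68 in G9a cKO, then 2 to 149 in GKAQ controls and 2 to 130 in cDKO. The locus ahead of Ddx4 had 0 to 3 and 0 to 1 reads, then 0 to 6 in GKAQ controls and 1 in each cDKO library. The pattern of mutant libraries all above controls near 0 was seen only at the locus ahead of Zp3 among the 5 loci ahead of these genes. The share of all loci with that pattern is not given. The locus ahead of Zp3 was singled out because its values followed Mt1 and because of its place, and the others were not. Nothing is read from this comparison.

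In G9a cKO limma called 0 of the 5 genes themselves at an adjusted p under 0.05. Over all loci 1.05% were called higher and 0.737% lower. Precision weights also called 0 of the 5, and 3 had an unadjusted p under 0.05. Shares of all RNA loci by either of these measures are not given, so nothing is read from such RNA counts here or below. In cDKO 2 of the 5 genes were higher and 1 lower, against 4.32% of all loci higher and 2.02% lower. All 5 had a mean of at least 10 RPM, and of all loci with such a mean 8.63% were higher and 7.18% lower. Zp3 had 1018 to 1078 RPM in GKAQ controls and 1259 and 1454 RPM in cDKO. Its log2 fold change in cDKO was 0.36 (SE 0.06, limma adjusted p = 2.77e-08). With all 6 controls pooled this fell to 0.02 (adjusted p = 0.878), as the GKAO controls had 1690 to 1700 RPM. In G9a cKO it was 0.12 (SE 0.05, adjusted p = 0.23). Gdf9 was lower in cDKO by a log2 fold change of −0.26 (SE 0.04, limma adjusted p = 1.09e-09), and its value in G9a cKO was −0.02 (SE 0.03, limma adjusted p = 0.678). Ddx4 was higher in cDKO by 0.46 (SE 0.15, adjusted p = 0.0405), with an adjusted p of 0.161 after centring each library on its median, and 0.126 and 0.199 without cDKO replicate 1 and 2. Prdm1 had log2 fold changes of 0.50 (adjusted p = 0.164) and 0.16 (adjusted p = 0.624), and Alpl −0.17 (adjusted p = 0.751) and −0.34 (adjusted p = 0.574), in G9a cKO and cDKO.

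Sequences of the mouse Mt1 gene, its polyadenylation signal among them, have been used in transgene cassettes, and upstream Zp3 sequence drives oocyte Cre transgenes. Whether reads from a transgene contributed to Mt1 or to the locus ahead of Zp3 was not tested. Each locus has 1 value per library, so where in Mt1 the reads fell was not analysed here.

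**Figure D2:**
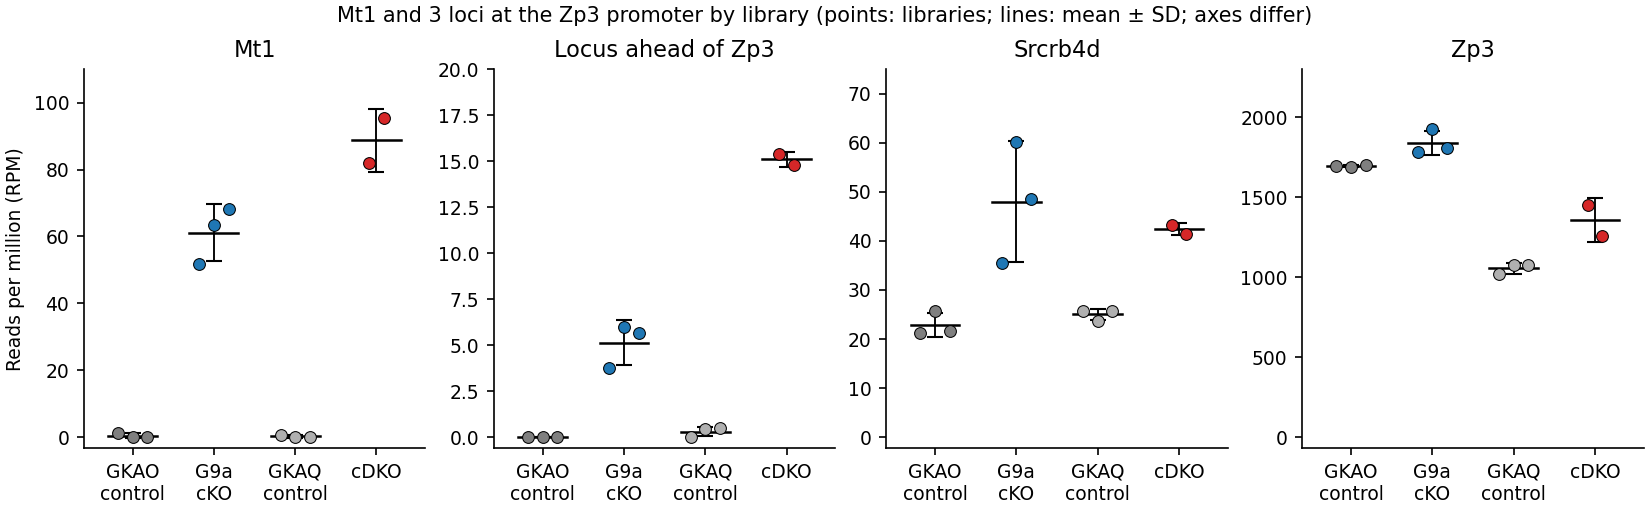
RPM of Mt1, the unnamed locus ahead of Zp3, Srcrb4d and Zp3 in 11 oocyte RNA libraries, by group, on axes of different length. Points are libraries and lines are the mean ± SD (n = 3, or 2 for cDKO). At Mt1 and at the locus ahead of Zp3 the controls are at or near 0 and every mutant library is higher, whereas the Zp3 levels of the 2 control groups do not overlap.

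Genes that handle zinc and copper or that share the known inducers of Mt1 were examined for a movement beside it. Their 6 lists hold 53 measured genes. In G9a cKO 0 of the 53 were called higher and 1 lower, against 1.05% and 0.737% of all 38540 loci. In cDKO 2 were higher and 3 lower, against 4.32% and 2.02% of all loci. Of the 53 genes, 32 had a mean of at least 10 RPM. Among these 0 were higher and 1 lower in G9a cKO, and 0 higher and 2 lower in cDKO. The background over the 9091 loci with such a mean was 2.84% higher and 2.39% lower in G9a cKO, and 8.63% higher and 7.18% lower in cDKO. The median log2 fold change of the 32 genes was −0.06 in G9a cKO and −0.08 in cDKO, beside 0.01 and 0.05 over the 9091 loci.

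Mtf1, which encodes the zinc sensor that drives Mt1 and Mt2, had 183 RPM as the median in GKAO controls and 226 in G9a cKO, and 225 in GKAQ controls and 202 in cDKO. Its log2 fold changes were 0.24 (SE 0.11, adjusted p = 0.23) and −0.10 (SE 0.12, adjusted p = 0.6). Slc39a10, a zinc importer known to be repressed by MTF-1, fell in cDKO, from 283 to 321 RPM in the controls to 196 and 234, by a log2 fold change of −0.49 (SE 0.12, limma adjusted p = 0.00122). Without cDKO replicate 1 it was −0.36 (adjusted p = 0.129). Over the 6 measured genes of the metal response list, Slc39a10 was the only one called in either mutant. Slc30a1, a zinc exporter on that list, had no locus matched by name and was not measured. Ndrg1, also on the list, had a mean of only 0.16 RPM.

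Of 7 measured zinc exporters, limma called 0 in G9a cKO, where 2 had an unadjusted p under 0.05 and precision weights called 0. In cDKO 1 of the 7, Slc30a2, was lower. Slc30a2 moves zinc into vesicles and had 14 to 23 reads in GKAQ controls and 2 in each cDKO library, with a log2 fold change of −2.94 (SE 0.60, limma adjusted p = 7.49e-05). In G9a cKO it had −1.65 (SE 0.54, adjusted p = 0.089), and without the library labelled G9a cKO replicate 2 −2.37 (adjusted p = 0.0156). Of 8 measured zinc importers, 1 was lower in cDKO, again Slc39a10. Of 10 measured genes that handle copper, limma called 0 in either mutant, with an unadjusted p under 0.05 for 1 in G9a cKO and 4 in cDKO. With precision weights 1 of them was called, Cox17, a copper chaperone of mitochondria, whose adjusted p in cDKO was 0.0167 against 0.192 with equal weights.

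Of 16 measured genes of the oxidative stress list, 1 was lower in G9a cKO, and 1 was higher and 1 lower in cDKO. Txnrd1, a thioredoxin reductase, fell in both mutants, with a log2 fold change in G9a cKO of −0.55 (SE 0.10, limma adjusted p = 3.75e-05) and in cDKO of −0.72 (SE 0.12, limma adjusted p = 1.31e-07). It ran from 257 to 268 RPM in GKAO controls to 149 to 227 in G9a cKO, and from 265 to 300 in GKAQ controls to 164 and 172 in cDKO. The fall in G9a cKO was past the threshold with equal weights but had an adjusted p of 0.0761 with precision weights and 0.215 with 0.5 RPM added. Hmox1, which encodes heme oxygenase, had 1 to 2 reads in GKAQ controls and 3 and 12 in cDKO, with a log2 fold change of 2.45 (SE 0.79, limma adjusted p = 0.034). With precision weights its adjusted p was 0.232, and without cDKO replicate 1 it was 0.694.

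Of 8 measured glucocorticoid-responsive genes, 1 was called in cDKO and 0 in G9a cKO, where 3 had an unadjusted p under 0.05 and precision weights called 0. Klf9, a transcription factor, had 1 to 2 reads in GKAQ controls and 6 and 8 in cDKO, with a log2 fold change of 2.66 (SE 0.77, limma adjusted p = 0.0133), with an adjusted p of 0.117 with precision weights and 0.0984 without cDKO replicate 1. Precision weights called another member, Zbtb16, also a transcription factor, at an adjusted p of 0.0209 in cDKO against 0.113 with equal weights, on 0 to 1 reads in GKAQ controls and 3 to 4 in cDKO. In G9a cKO the only gene that limma called in these 6 lists was Txnrd1, which was lower. The part of these inducers in the level of Mt1 was not tested. With 0.5 RPM added, none of the 5 pathway genes called in cDKO was past the threshold by limma: the adjusted p was 0.0649 for Txnrd1, 0.0529 for Slc39a10, 0.0729 for Slc30a2, 0.365 for Hmox1 and 0.153 for Klf9. With all 6 controls pooled it was 0.407 for Slc39a10 and 0.113 for Hmox1.

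**Figure D3:**
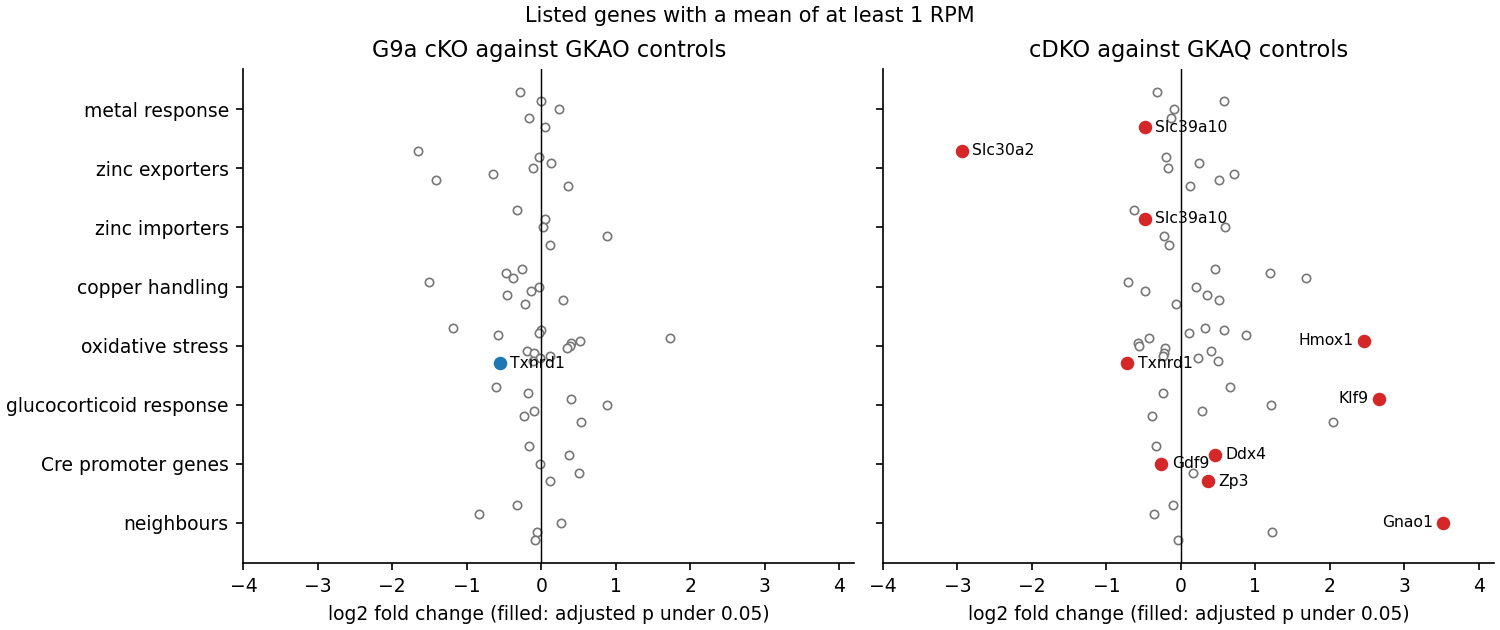
Log2 fold change of each listed gene with a mean of at least 1 RPM, by list, in G9a cKO (left) and cDKO (right). Filled and named points have an adjusted p under 0.05 by limma over all loci, and open points do not. In G9a cKO only Txnrd1 is filled. In cDKO the filled points are Slc30a2, Slc39a10, Txnrd1, Hmox1, Klf9, Zp3, Gdf9, Ddx4 and Gnao1.

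The other genes around the cluster were examined next. Of 5 named neighbours of the cluster, limma called 0 in G9a cKO, where 2 had an unadjusted p under 0.05 and precision weights called 0. Over all loci 1.05% were called higher and 0.737% lower in G9a cKO, and 4.32% and 2.02% in cDKO. In cDKO 1 neighbour was higher. This was Gnao1, a G protein subunit whose start lies 369123 bases from that of Mt1. It had 1 to 3 reads in GKAQ controls and 15 and 22 in cDKO, with a log2 fold change of 3.52 (SE 0.73, limma adjusted p = 0.000101). Gnao1 had 2 to 4 reads in GKAO controls and 3 to 9 in G9a cKO. Nup93, a nuclear pore gene that follows Mt1 with its start 35407 bases away, had log2 fold changes of −0.08 (adjusted p = 0.622) and −0.03 (adjusted p = 0.85). Bbs2, which lies before Mt4, had −0.84 (adjusted p = 0.109) and −0.36 (adjusted p = 0.565), and Nudt21 −0.06 (adjusted p = 0.944) and 1.22 (adjusted p = 0.182). Between Bbs2 and Nup93 the only named genes described here are the metallothioneins. Among them Mt1 alone had all mutant libraries above its controls. It was chosen by that contrast, and Mt2 and Mt3 had no reads in any library, so nothing is read from this.

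Markers of other ovarian cells were set beside Mt1, since such cells could be carried along in dissection. Fewer cells of a type and less RNA per cell cannot be told apart in these pools. The summed level of 13 measured granulosa and cumulus markers was 189 to 200 RPM in GKAO controls and 141 to 167 in G9a cKO. Nr5a2, with a mean of 95.1 RPM, and Cyp19a1, with 36.7 RPM, make up most of that sum, and single markers did not all follow it. Fshr, the receptor for follicle-stimulating hormone, had 0 to 5 reads in GKAO controls and 8 to 14 in G9a cKO, with a log2 fold change of 1.85 (SE 0.61, limma adjusted p = 0.0971). In GKAQ controls the sum was 136 to 167 RPM and in cDKO 123 to 149, with overlap. Of these markers, Fshr (adjusted p = 0.03, and 0.168 with precision weights) and Inha (adjusted p = 0.00472) were called higher in cDKO by limma, and Amh had at most 5 reads in any library. Over all loci 4.32% were called higher in cDKO, and 8.63% of those with a mean of at least 10 RPM. The 5 measured blood markers summed to at most 4.10 RPM and the 7 of theca and stroma to at most 5.00 RPM in any library. The 3 endothelial markers summed to 147 to 180 RPM and 145 to 163 RPM in the GKAO series, and to 105 to 139 RPM and 135 to 136 RPM in the GKAQ series, with overlap in both. Pecam1, with a mean of 98.9 RPM, made up most of the endothelial sum. Of these 3 markers, Kdr, a receptor for vascular endothelial growth factor, was higher in cDKO, with 7 to 17 reads in GKAQ controls and 32 and 39 in cDKO. Its log2 fold change was 1.71 (SE 0.41, limma adjusted p = 0.00125). In G9a cKO Kdr had 0.58 (SE 0.36, limma adjusted p = 0.252). The part of such cells in the level of Mt1 was not tested. Hba-a1, Hbb-b1, Hbb-b2, Col1a2, Lum and Acta2 had 0 reads in all 11 libraries.

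H3K9me2 over the cluster was compared in 10 kb windows of the 100 kb around the cluster, which begin at position 94100001. The windows chr8:94170001-94180000 and chr8:94180001-94190000, over Mt2 and Mt1, were not analysed here. Nor was the window over the Zp3 start, chr5:135970001-135980000. The remaining 8 windows include those of Mt4 and Mt3. None of the 8 was called in either mutant by limma, with lowest adjusted p-values of 0.391 in G9a cKO and 0.47 in cDKO. With precision weights the counts were also 0 and 0. At an unadjusted p under 0.05 there were 0 windows in G9a cKO and 1 in cDKO. Genome-wide 1.85% of 255057 windows were called in G9a cKO and 0% in cDKO. An unadjusted p under 0.05 was found for 48990 windows (19.2%) in G9a cKO and 22952 (9.0%) in cDKO.

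The window of Mt4, chr8:94130001-94140000, had 5.96 and 5.38 RPM in controls, 5.38 and 6.31 RPM with G9a cKO, and 6.38 and 5.85 RPM with cDKO. All 3 genotypes overlapped. The window of Mt3, chr8:94150001-94160000, had 3.97 and 3.14 RPM in controls, 0.538 and 3.61 RPM in G9a cKO, and 3.48 and 2.66 RPM in cDKO. The lowest of these values was 1 read. The window between these genes, chr8:94140001-94150000, singled out after its values were seen, had 5.53 and 5.23 RPM in controls and 9.29 and 9.03 RPM in cDKO. Its log2 fold change in cDKO was 0.77 (SE 0.29), with an unadjusted limma p of 0.0221 and an adjusted p of 0.47.

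Single windows held few reads in the mutants, 1 to 17 per library, so the 8 windows were also summed. The sum was 39.3 and 35.1 RPM in controls (277 and 671 reads), 31.8 and 31.6 RPM in G9a cKO (59 and 35 reads), and 37.1 and 37.2 RPM in cDKO (64 and 70 reads). Both G9a cKO libraries were below both controls, and the cDKO libraries lay between the controls. For G9a cKO the log2 fold change was −0.23 (SE 0.15, limma adjusted p = 0.27), and for cDKO it was 0.00 (SE 0.15, limma adjusted p = 0.995). These did not pass the threshold. Over all 25549 bins of 100 kb, 29.7% were called in G9a cKO and 6.01% in cDKO. Per window, the region stood at percentiles 91.0 and 69.9 among all bins in the control libraries, at 56.3 and 53.6 in those of G9a cKO, and at 76.5 and 80.0 in those of cDKO. Because RPM is relative to the reads of a library, these values show the place of the region within the genome-wide distribution and not the amount of the mark.

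**Figure D4:**
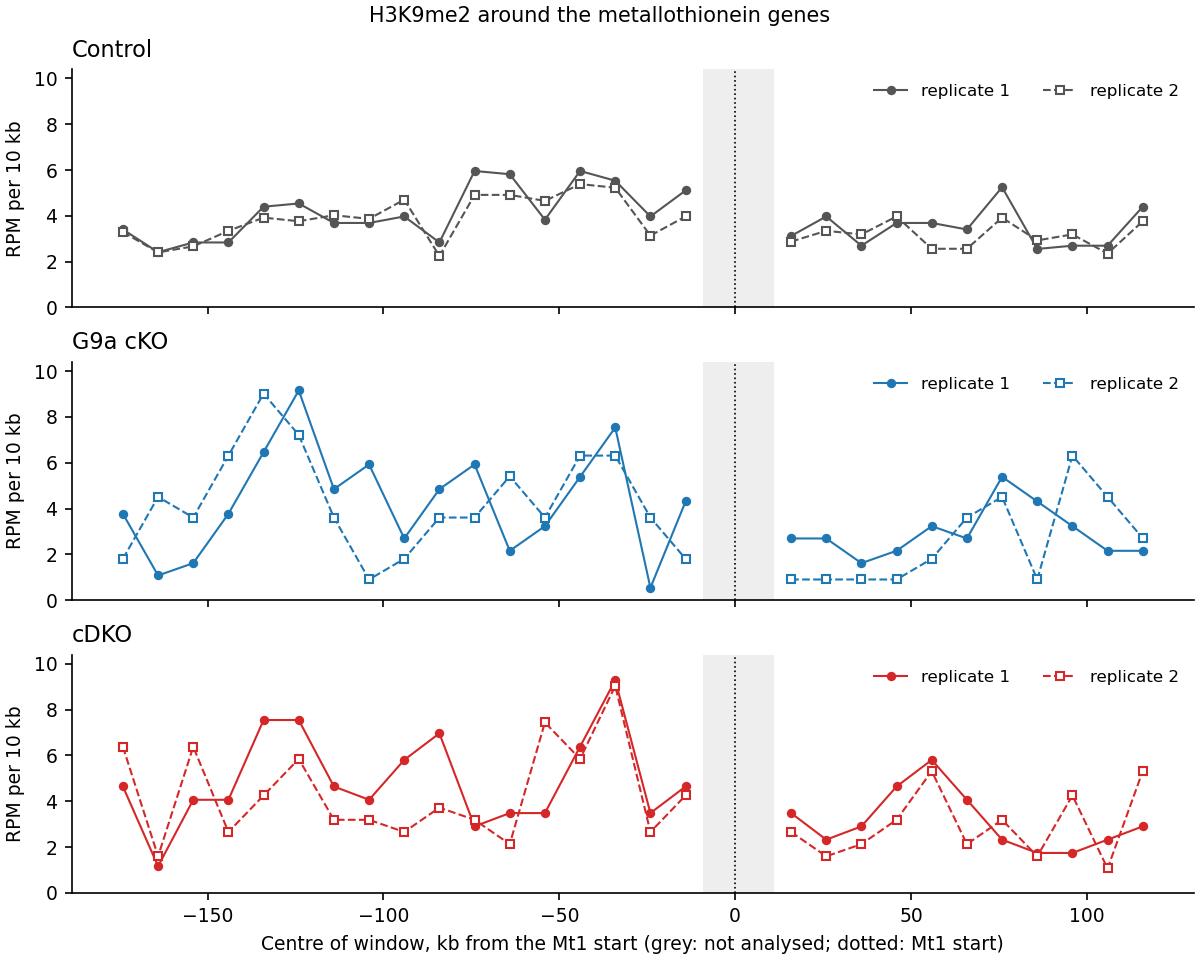
H3K9me2 in RPM per 10 kb window by distance in kb from the Mt1 start, with 1 panel per genotype and 1 line per library (n = 2). The grey band marks the windows over Mt2 and Mt1, not analysed here, and the dotted line the Mt1 start. In the 8 windows tested the control libraries run from 2.88 to 5.96 RPM and the mutant libraries, which are shallower, from 0.538 to 9.29 RPM.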

How the data were processed

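RNA was measured in 11 libraries and H3K9me2 in 6. The authors deposited both data sets as log2 values with each library in its own column. From the values, each is the log2 of RPM, the reads of a feature scaled to 1000000 per library, with an empty feature set to 0.9 read: 100% of values in every library came out as whole reads within 0.05, and reads are given from that step. The submitters' processing notes name Trim Galore, Bowtie2, HISAT2 2.1.0, Bismark 0.19.0 and GRCm38, and the counting method and strand setting are not given in the sources used here. A further 4 columns of H3K9me2 values were not used, and the bisulphite, input and IgG samples were not analysed here.

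Groups follow the genotype and title prefix in the labels. limma 3.58.1 (R 4.3.3, data.table version 1.17.8) was fitted on the log2 values with a mean per group, trended and robust variances, and two-sided p-values adjusted by Benjamini-Hochberg over all 38540 loci, over the 255057 windows with a read, or over 100 kb bins with a read in at least 50% of windows. A feature was called at an adjusted p under 0.05. Precision weights refer to limma's voom on the recovered reads. Scripts were tested on simulated data. A gene name was used only for a locus on the gene's strand, and for a name with several loci the one with the highest mean was taken. A fold against controls with at most 3 reads was computed against 3 reads in the shallowest of them. The summaries and figures used Python 3.11.15, pandas 2.3.3, numpy 2.4.6 and matplotlib 3.10.9. RefSeq promoters of GRCm38.p6 matched 4 of 4 members.

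The members, the gene lists and the tests were chosen with earlier results of these data known. Named genes are the members and loci over them, the neighbours (the values of 1 are not reported here), the called members of each pathway list (at most 5 per list and comparison) with Mtf1, all 5 Cre promoter genes, Ehmt1, Ehmt2, and the 5 named loci most like Mt1. The locus ahead of Zp3, Srcrb4d and single markers, windows or genes called with precision weights or the block alone were named after their values were seen. The alternatives tried were centring on the median, adding 0.5 RPM, a mean of at least 1 RPM, precision weights, pooled controls, all windows, leaving out each library, and a block on the number in the sample title, which was added after the data were seen.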

Additional observations from a re-analysis of the deposited data

Results flagged for a closer look

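The effects of the 2 mutants differed for Ehmt1, which encodes GLP: the change in cDKO minus that in G9a cKO was −2.14 on the log2 scale (SE 0.27, limma adjusted p = 1.98e-11 for the difference). Ehmt1 is labelled as deleted in cDKO alone. They also differed for Gdf9, the oocyte growth factor whose promoter drives a Cre line, by −0.24 (SE 0.05, limma adjusted p = 0.000753), with a level of 4388 to 4562 RPM in GKAQ controls and 3559 and 3882 RPM in cDKO against 3776 to 3874 RPM in GKAO controls and 3595 to 3862 RPM in G9a cKO. No such difference was past the threshold for Zp3 (0.24, SE 0.07, limma adjusted p = 0.0907).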

How the results depend on the processing

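Depth limits what can be said of Mt2 and Mt3, which had no reads, and of H3K9me2, where the mutant libraries held 1 to 17 reads per window. The log2 difference of Mt1 depends on the value given to empty loci and is no bound: it was 7.55 in cDKO as deposited, 7.08 with 0.5 RPM added and 7.99 with the title number as a block, and stayed positive under every setting tried. Over 36 fold changes of named genes and 612 alternative values, 557 kept their direction and side of the threshold, 32 were no longer past it, 8 came to pass it and 15 changed sign. Some RNA titles share a number across genotypes, and the labels do not say what it marks. Over 9091 loci, deviations from the group means of same-numbered control and mutant libraries correlated at 0.011 to 0.113 in the GKAO series. For libraries of different number the values were −0.122 to 0.003. In the GKAQ series the deviations of the cDKO libraries mirror each other, so such values say nothing there. Whether a title number pairs samples was not settled, and the main fit left it out. A fit with that number as a replicate block, chosen after seeing the data, left 3 residual degrees of freedom and rested on 1 library per genotype for cDKO. It called 805 loci in G9a cKO against 689 without the block, and 972 in cDKO against 2444, of which 565 were shared. The 63 listed genes then had 1 call in G9a cKO and 3 in cDKO (Txnrd1, Gdf9 and Ndrg1).

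The 63 pathway, Cre promoter and neighbouring genes had 1 call in G9a cKO, and 0 with 0.5 RPM added, 0 with precision weights, 8 with all controls pooled, 2 among loci with a mean of at least 1 RPM, and 1 to 2 leaving out 1 library, with 2 without G9a cKO replicate 2. In cDKO they had 9 calls, and 3 with 0.5 RPM added. The cause was not tested. With all controls pooled the log2 fold changes of Ehmt1 (−0.0565), Slc39a10 (−0.26), Nudt21 (0.34) and Nup93 (0.0567) in G9a cKO and of Alpl (0.0649) in cDKO changed sign. Leaving out 1 library also turned the sign of some fold changes that were not past the threshold. In G9a cKO these ranged from −0.0647 to 0.21 for Ehmt1, −0.0068 to 0.0948 for Slc39a10, −0.23 to 1.26 for Hmox1, −0.0397 to 0.012 for Gdf9, −0.59 to 0.32 for Alpl, −0.16 to 0.60 for Gnao1 and −0.24 to 0.22 for Nudt21. In cDKO they ranged from −0.12 to 0.0135 for Nup93 and from −0.0803 to 0.0836 for H3K9me2 of the summed windows. For Ehmt1 the value without GKAO control replicate 2 was the lowest, and for H3K9me2 that without control replicate 2.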
